A study of Mus musculus with 8 samples.

Results

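Ctnnb1-ex3 mouse intestinal organoids were compared with wild-type (WT) organoids, using 2 RNA-seq libraries of each genotype, 4 of the 8 libraries of the series. The libraries were taken by the genotype and replicate number in their column labels, and every gene of the deposited count table was considered: 21757 genes, of which 12976 held enough counts to be tested. Organoids are self-organising epithelial cultures, here grown from mouse small intestine, and the libraries were made from polyadenylated RNA with a custom form of Smart-seq2, a full-length cDNA protocol whose standard form does not keep the strand. The WT cultures received homemade Wnt3a and R-spondin1 with Noggin at 0.1 µg/ml and EGF at 0.05 µg/ml, whereas the Ctnnb1-ex3 cultures received only Noggin and EGF at the same concentrations. Genotype and medium therefore differed together in every comparison below and cannot be told apart. The name Ctnnb1-ex3 is commonly used for alleles that lose exon 3 of the beta-catenin gene. The labels do not say from how many animals, clones or cultures the libraries came, so the p-values measure only the spread between libraries, which may be technical.

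Beta-catenin is the transcriptional coactivator of the Wnt pathway. Its exon 3 encodes the residues whose phosphorylation marks the protein for destruction, and loss of that exon leaves the pathway active without ligand. In the intestine, Wnt signals are strongest in the crypt, where stem and progenitor cells divide. Cells that leave the crypt become mainly enterocytes, which digest and absorb nutrients and also carry much of the detoxifying chemistry of the gut wall.

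The genes that mark the crypt and the villus followed the labels. The stem cell gene Lgr5 had 12 and 15.6 CPM in WT and 225 and 230.4 CPM in Ctnnb1-ex3 (CPM, counts scaled to a common library size with TMM factors; here and below replicate 1 is given before replicate 2). The Wnt feedback gene Axin2 had 13.6 and 12.9 CPM in WT and 131 and 152 CPM in Ctnnb1-ex3. The stem cell factor Ascl2 had 4.60 and 3.42 CPM in WT and 114 and 102 CPM in Ctnnb1-ex3. These 3 were higher in both Ctnnb1-ex3 libraries than in either WT library. The enterocyte keratin Krt20 had 283 and 324 CPM in WT and 52.0 and 46.2 CPM in Ctnnb1-ex3, and the alkaline phosphatase Alpi had 390.0 and 448 CPM in WT and 42.2 and 17.0 CPM in Ctnnb1-ex3, both lower in Ctnnb1-ex3 with no overlap. All 5 passed the test, with log2 fold changes (Ctnnb1-ex3 over WT; a value in brackets after a gene is this quantity unless another is named) of 4.07, 3.40, 4.70, -2.62 and -3.78 (-4.64 for Alpi without Ctnnb1-ex3 replicate 1). Ctnnb1 itself had 340.3 and 423 CPM in WT and 217 and 289 CPM in Ctnnb1-ex3 and did not pass, although the groups did not overlap (log2 fold change -0.59, edgeR adjusted p = 0.0504). Whether Ctnnb1 passed depended on the method, as described under processing below. A count for the whole gene cannot show whether exon 3 is present. The epithelial gene Epcam had 438 and 594 CPM in WT and 298 and 418 CPM in Ctnnb1-ex3, and the intestinal factor Cdx2 had 88.4 and 78.4 CPM in WT and 81.2 and 91.2 CPM in Ctnnb1-ex3, so both were present in all 4 libraries.

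The libraries held 2951887 to 6015933 counts. The lowest value in the table is 1 in every library, and 861 genes stood at 1 in all 4. At the edgeR quasi-likelihood test's adjusted p threshold of 0.05, 2637 genes were called higher in Ctnnb1-ex3 (20.3% of those tested) and 2654 were called lower (20.5%), 40.8% in all. Counts of calls in a list or family below are to be read against these shares. Of the calls, 1687 were higher by at least 2-fold (13% of genes tested) and 1166 were lower by at least 2-fold (8.99%). The median log2 fold change was 0.02 over all genes tested, 1.27 over those called higher and -0.91 over those called lower. Libraries of the 2 groups did not overlap in CPM for 73.6% of the genes tested, and this held for all 5291 called genes. Without WT replicate 1 the calls numbered 1325 higher and 1635 lower, without WT replicate 2 they numbered 1110 and 1524, and without Ctnnb1-ex3 replicate 2 4008 and 3749. Among the calls, 914 higher and 1273 lower kept their direction and call in each of the 14 alternatives that tested them, and such calls are named stable below. Upper-quartile scaling factors moved the median log2 fold change of all genes to 0.26 and gave 3725 calls higher and 1752 lower, so that the share of higher calls went from 49.8% to 68.0%.

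Libraries of a genotype differed in depth, and this difference shrank in genes dense in reads. The highest count per exonic base was 1.94 and 1.67 in the WT libraries and 1.99 and 1.67 in the Ctnnb1-ex3 libraries. The median ratio of WT replicate 1 to WT replicate 2 was 1.86 in the genes with the fewest counts per base and 1.17 in those with the most, and for Ctnnb1-ex3 it went from 1.82 to 1.13. Over the same classes the median log2 fold change went from 0.76 to -0.56. Genes dense in reads thus had lower fold changes than sparse genes as a whole. Beside a list's median, the median after an offset that follows read density is given where the offset moved it by more than 0.2. For gene families this offset median was not computed. Markers of other cells were few: of 17 stromal and endothelial markers 2 had enough counts to test, of 16 immune and blood markers 4 had, and 0 were called by edgeR. Summed over each list, stromal markers had 48 to 333 counts in a library and immune markers 60 to 434. The lymphocyte genes Gzma, Ccl5, Nkg7 and Ptprc had 110, 56, 28 and 25 counts in Ctnnb1-ex3 replicate 2 and at most 4 in any other library, while the myeloid gene Lyz2 had 323 counts in WT replicate 1 against 3 to 74 in the others.

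**Figure D1:**
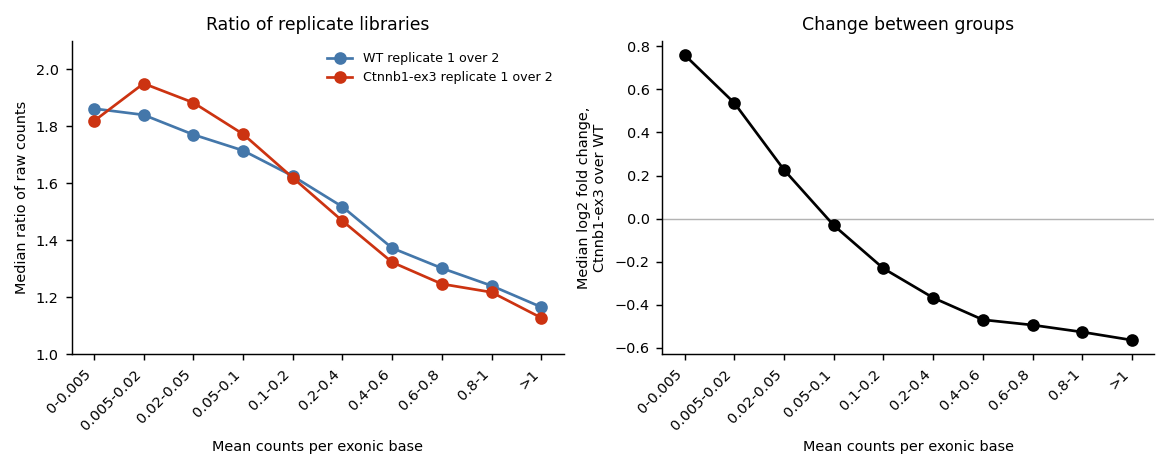
Medians by class of read density, in counts per exonic base (x axis): the replicate ratio within each genotype, and the log2 fold change of Ctnnb1-ex3 over WT. The replicate ratios fall towards 1.17 in WT and 1.13 in Ctnnb1-ex3 as genes become denser in reads, and the median log2 fold change falls from 0.76 to -0.56.

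**Figure D2:**
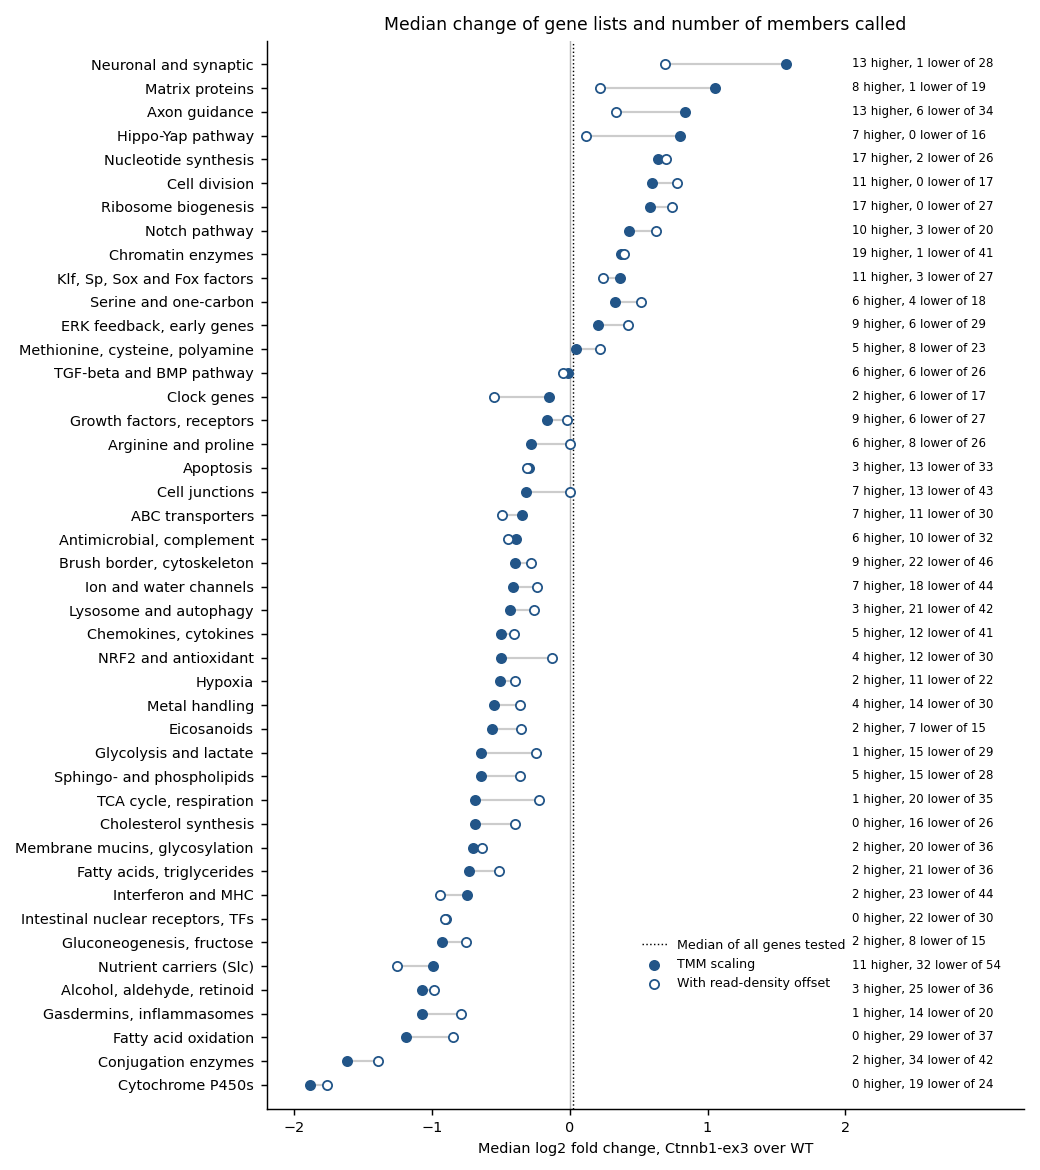
Median log2 fold change of each of 44 functional gene lists (points), with and without the offset that follows read density. Lists of drug metabolism, fatty acid oxidation and nutrient uptake lie at the low end, with cytochrome P450 at -1.89, and neuronal and matrix genes at the high end, where the offset moves the medians most.

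The genes with the largest rises among well-expressed genes, outside the usual lineage marker and Wnt target lists, have varied known roles. Stox2, which encodes a winged-helix protein, had 1.61 and 3.80 CPM in WT and 62.5 and 56.8 CPM in Ctnnb1-ex3 (4.56; 3.93 without WT replicate 1; 5.18 without WT replicate 2). Mid1, a microtubule-bound ubiquitin ligase, had 6.45 and 9.51 CPM in WT and 127 and 124 CPM in Ctnnb1-ex3 (4.02). Mex3a, an RNA-binding protein known from slowly dividing intestinal progenitors, had 6.91 and 6.85 CPM in WT and 94.2 and 97.9 CPM in Ctnnb1-ex3 (3.80). In all 3 both Ctnnb1-ex3 libraries lay far above both WT libraries. Matrix and secreted proteins among the rises were Habp2, a serine protease that binds hyaluronan (4.36), Prelp, a proteoglycan (3.98), and Thbs1, thrombospondin 1 (3.67). Others were the actin-associated adaptor Sorbs2 (3.59), the microtubule-guiding Nav1 (3.07), the calcium release channel Itpr2 (3.06) and the membrane protein Emp2 (3.02). Rgcc, a cell cycle regulator, had 7.37 and 19.4 CPM in WT and 116 and 137 CPM in Ctnnb1-ex3, so that its WT libraries differed (3.34; 2.67 without WT replicate 1; 4.08 without WT replicate 2). The uncharacterised 1110028F11Rik (3.34) and G530011O06Rik (3.04) also rose. G530011O06Rik lies within Mid1 on the opposite strand, and reads of that pair cannot be told apart where strand is not kept.

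Among the largest falls, several genes went to near the floor of the assay. Gt-ROSA.26Sor, the transcript of the Rosa26 locus, a widely used insertion site for transgenes, had 152 and 154 CPM in WT and 1.2 and 3.34 CPM in Ctnnb1-ex3. The WT libraries held 659 and 405 counts of it and the Ctnnb1-ex3 libraries 8 and 13 (-6.22, edgeR adjusted p = 3.21e-05; -5.51 without Ctnnb1-ex3 replicate 1; -6.96 without Ctnnb1-ex3 replicate 2), and the labels name no transgene. Xkr9, of a family of membrane scramblases, had 97.2 and 96.6 CPM in WT and 1.05 and 2.57 CPM in Ctnnb1-ex3 (-5.86; -5.23 without Ctnnb1-ex3 replicate 1; -6.49 without Ctnnb1-ex3 replicate 2). Both transcripts were many times lower in each Ctnnb1-ex3 library than in either WT library. The glucuronosyltransferase Ugt2b5 (-5.57) and the uncharacterised Gm766 (-5.07) fell with both Ctnnb1-ex3 libraries close together. Those libraries differed more for Slc25a45, a mitochondrial carrier (-4.96; -6.73 without Ctnnb1-ex3 replicate 1), Akp3, the duodenal alkaline phosphatase (-5.18; -6.13 without Ctnnb1-ex3 replicate 1), and Gm11437 (-4.75; -8.20 without Ctnnb1-ex3 replicate 1; -4.05 without Ctnnb1-ex3 replicate 2). Gm11437 had 1 count, the lowest table value, in Ctnnb1-ex3 replicate 2, so its -8.20 is not a measured size. Ctnnb1-ex3 replicate 1 stood above replicate 2 in 62.3% of the 1166 genes that fell at least 2-fold, in 61.3% of the 1687 that rose at least 2-fold, and in 50.5% of all genes tested. For WT replicate 1 over replicate 2 the shares were 47.3%, 61.9% and 53.6%, so among the risers the 2 genotypes were alike in this.

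**Figure D3:**
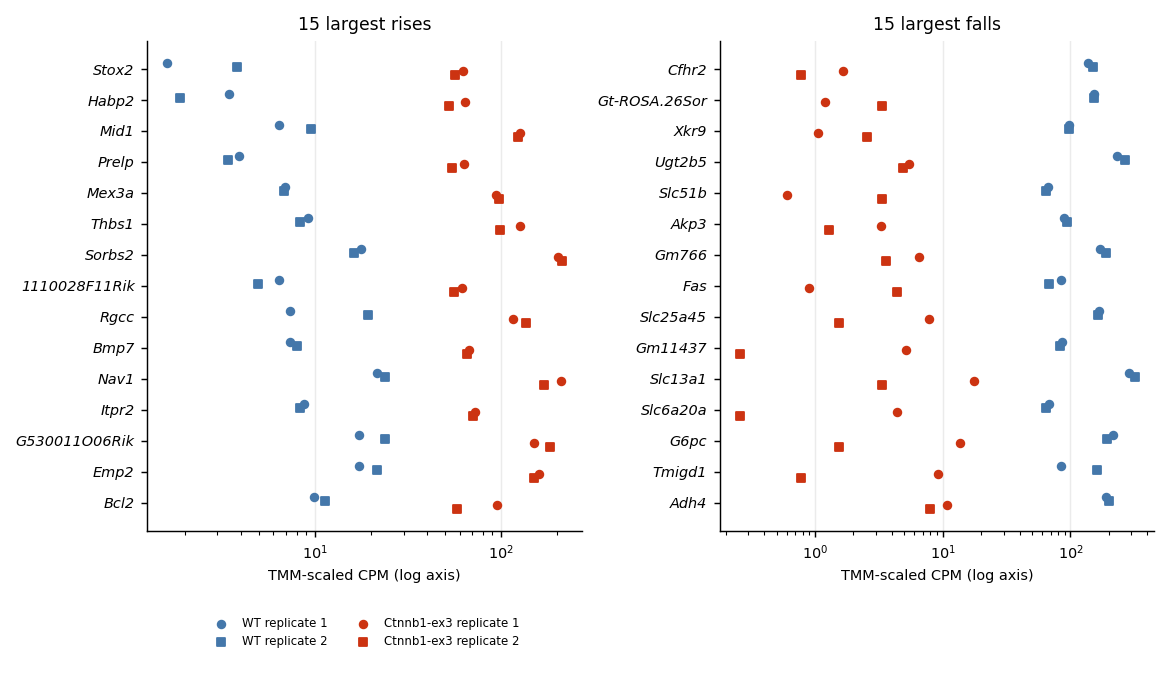
CPM in each of the 4 libraries (log axis) for the 15 largest rises and the 15 largest falls among called genes whose mean log2 CPM was 5 or more, leaving out genes of the usual Wnt target and cell type marker lists. Genes were also picked for WT and Ctnnb1-ex3 points that do not overlap, which held for all 5291 called genes.

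By absolute amount of RNA, the order was different. The largest gains of mean CPM included the long non-coding RNA Kcnq1ot1, which had 409 and 418 CPM in WT and 816 and 797 CPM in Ctnnb1-ex3 (0.96) and lost its call without WT replicate 1 (0.92, edgeR adjusted p = 0.0960). It lies antisense to Kcnq1, and reads of the pair cannot be told apart where strand is not kept. The sodium, potassium and chloride cotransporter Slc12a2 (0.83; 0.79 without WT replicate 1, not called; 0.82 without WT replicate 2, not called), the cholesterol esterifying enzyme Soat1 (1.44) and the histone chaperone Nap1l1 (0.96; 0.88 without WT replicate 1, not called) gained as well. The losses were larger. The disaccharidase Sis had 1570 and 1929 CPM in WT and 338 and 172 CPM in Ctnnb1-ex3. Apob, the core protein of chylomicrons, had 1155 and 1180 CPM in WT and 243 and 155 CPM in Ctnnb1-ex3. Dmbt1, a secreted scavenger receptor, had 659 and 825 CPM in WT and 95.4 and 57.3 CPM in Ctnnb1-ex3. For each of the 3 the groups did not overlap, and the monoamine oxidase Maoa (-1.90) and the N-glycan branching enzyme Mgat4a (-1.49) fell too.

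Genes of drug and xenobiotic metabolism were mostly lower. Cytochromes P450 oxidise lipophilic compounds, transferases then attach glucuronic acid, sulfate or glutathione, and efflux pumps export the products. Of 24 listed P450 genes and partners tested, 19 fell (79.2%, against 20.5% of all genes tested) and 0 rose, with a median log2 fold change of -1.89, and 18 of the falls were stable. Cyp2c66 had 220.3 and 253 CPM in WT and 24.5 and 10.5 CPM in Ctnnb1-ex3 (-3.69, edgeR adjusted p = 0.000189; -4.50 without Ctnnb1-ex3 replicate 1). Cyp3a13 had 460.0 and 538 CPM in WT and 134 and 69.6 CPM in Ctnnb1-ex3 (-2.28). Cyp2d22 had 55.5 and 39.9 CPM in WT and 4.51 and 3.08 CPM in Ctnnb1-ex3 (-3.61). All 3 were lower in both Ctnnb1-ex3 libraries, and in each of them replicate 1 was the higher of the pair. Por, which passes electrons to microsomal P450 enzymes, fell (-1.0). Over the whole Cyp family 27 of 35 tested genes fell and 2 rose. Cyp2c44, at the lowest table value in both Ctnnb1-ex3 libraries, was at least 22-fold lower. Cyp2e1, an ethanol-inducible member, had 7.60 and 6.85 CPM in WT and 36.7 and 38.5 CPM in Ctnnb1-ex3 and was one of the risers (2.37).

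Of 42 conjugation enzymes and esterases tested, 34 fell (28 stable) and 2 rose, with a median of -1.62 (-1.39 with the density offset). Ugt2b5 had 231 and 266 CPM in WT and 5.41 and 4.88 CPM in Ctnnb1-ex3, a 47.5-fold fall, and Ugt1a1, the bilirubin-conjugating enzyme, also fell (-2.33). By family, the falls covered 8 of 10 UDP-glucuronosyltransferases tested, 10 of 13 carboxylesterases, 4 of 5 sulfotransferases and 16 of 22 glutathione transferases. The esterase Ces2c had 86.8 and 82.2 CPM in WT and 6.61 and 5.65 CPM in Ctnnb1-ex3, lower in both Ctnnb1-ex3 libraries. The 2 risers of the list were the sulfotransferase Sult1a1, near the floor at 0.460 and 1.90 CPM in WT and 4.96 and 5.14 CPM in Ctnnb1-ex3 (2.21; 1.37 without WT replicate 1, not called; 3.37 without WT replicate 2, not called), and the sulfur transferase Tst (0.83; 0.76 without WT replicate 2, not called). Reads shared by near-identical copies within the Cyp2c, Cyp3a, Ugt, Ces, Gst, Naip, Defa and H2 families may have been split between them, so single members of these families are less certain than the family counts.

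Genes that take up sulfate and make its activated donor were lower. Slc13a1, the apical sulfate carrier, had 289 and 318 CPM in WT and 17.4 and 3.34 CPM in Ctnnb1-ex3 (-4.73; -6.50 without Ctnnb1-ex3 replicate 1; -4.12 without Ctnnb1-ex3 replicate 2). Papss2, which makes the activated sulfate donor, had 638 and 768 CPM in WT and 68.7 and 51.1 CPM in Ctnnb1-ex3 (-3.54). Its paralog Papss1 fell too (-0.98). Of the 5 sulfotransferases tested 4 fell, among them Sult1d1 (-2.71) and Sult1b1 (-2.34), and 1 rose, the Sult1a1 described above (2.21; 1.37 without WT replicate 1, not called; 3.37 without WT replicate 2, not called). In each gene named here as lower both Ctnnb1-ex3 libraries were below both WT libraries.

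Alcohol, aldehyde and retinoid enzymes fell in 25 of 36 and rose in 3, with a median of -1.07. All 5 alcohol dehydrogenases tested fell. Adh7, which oxidises retinol as well as ethanol, had 33.2 and 37.7 CPM in WT and 0.751 and 0.771 CPM, near the floor, in Ctnnb1-ex3. Adh4 had 191 and 200.5 CPM in WT and 10.8 and 7.96 CPM in Ctnnb1-ex3. The aldo-keto reductase Akr1b7 had 183 and 211 CPM in WT and 9.02 and 11.8 CPM in Ctnnb1-ex3. Each of these was lower in both Ctnnb1-ex3 libraries, as was Adh6a (-3.14). Along the path from vitamin A to retinoic acid, Rdh7 (-3.38), which oxidises retinol, and Aldh1a1 (-2.60), which makes retinoic acid, fell. Bcmo1, which cleaves beta-carotene, was called higher only narrowly, at an edgeR adjusted p of 0.0497 (1.29; 1.18 without WT replicate 1, not called; 1.35 without WT replicate 2, not called; 0.73 without Ctnnb1-ex3 replicate 2, not called). It was also not called by DESeq2 (1.27), limma-voom (1.09) or cyclic loess (0.69). The same held under the density offset (1.01), without the filter on low counts (1.30) and with 1 taken away from each count (1.33). The retinol carrier Rbp4 rose (1.09; 1.14 without WT replicate 1, not called; 1.02 without WT replicate 2, not called).

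These metabolic falls moved together with the enterocyte markers. Of 29 listed enterocyte markers 27 fell, with a median of -2.14, and their summed level was 9493 and 11021 CPM in WT against 2707 and 2133 CPM in Ctnnb1-ex3. In bulk RNA, fewer cells of a type and less RNA per cell cannot be told apart, and the part of cell composition in any list was not tested.

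Several transcription factors that govern enterocyte metabolism were lower. Of 30 listed factors 22 fell and 0 rose (median -0.90). Ppara, the fatty acid sensing nuclear receptor, had 205 and 213 CPM in WT and 18.9 and 18 CPM in Ctnnb1-ex3 (-3.49). Hnf4g, one of the pair of HNF4 receptors that drive enterocyte genes, had 556 and 639.8 CPM in WT and 131 and 109 CPM in Ctnnb1-ex3 (-2.31). In both, each Ctnnb1-ex3 library was far below each WT library. Its partner Hnf4a also fell (-0.64; -0.80 without WT replicate 1, not called; -0.52 without WT replicate 2, not called; -0.53 without Ctnnb1-ex3 replicate 1, not called), as did Creb3l3, a membrane-bound factor of lipoprotein genes (-3.40; -4.32 without Ctnnb1-ex3 replicate 1). Hnf4a was also not called with cyclic loess scaling (-0.17) or upper-quartile factors (-0.40). With the density offset Hnf4a had -0.29 and was called. Among sensors of small molecules, the bile acid receptor Nr1h4 (-2.67), the xenobiotic receptors Nr1i3 (-3.20; -5.89 without Ctnnb1-ex3 replicate 1; -2.46 without Ctnnb1-ex3 replicate 2) and Nr1i2 (-0.98) and the glucocorticoid receptor Nr3c1 (-1.15) fell. The factor Maf (-2.0; -3.05 without Ctnnb1-ex3 replicate 1) fell too. The gut identity factor Cdx2 had 0.04, and Cdx1 and Gata6 had -0.36 and -0.35, none of them called, while Gata4 fell (-0.85).

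Promoters were searched for 7 motifs of transcription factors. The 250 bases before the start of each gene were read from RefSeq (assembly GRCm38.p6) for 10338 of the 12976 tested genes. The letters CAAAGTCCA, a form of the direct repeat bound by HNF4 receptors, were found on either strand in 56 of all promoters (0.542%), in 18 of the 924 that fell at least 2-fold (1.95%) and in 2 of the 1307 that rose at least 2-fold (0.153%). The other motifs were CDX (TTTATNG), in 7.92% of all promoters, 11.1% of those 2-fold lower and 8.57% of those 2-fold higher, the sterol element SRE (TCACNCCAC), in 1.32%, 2.6% and 1.22%, and the interferon-stimulated element ISRE, in 3.12%, 4.11% and 2.6%. In the same order TCF/LEF (ATCAAAG) was in 2.93%, 3.57% and 3.67%, the MYC E-box (CACGTG) in 9.76%, 8.87% and 9.33%, and the ATF4 element (TGATGNAAN) in 2.48%, 2.6% and 1.84%. Of the called genes on the gene lists, marker lists included, 9 held the HNF4 letters and all 9 fell, 7 of them by at least 2-fold. Over all called genes the letters were in 25 promoters of genes called lower (1.17%) and 4 of genes called higher (0.193%). The lists were chosen with earlier results of these data known, so no conclusion is drawn from the 9. These 7 are shown because they fell at least 2-fold. The others were B3gnt3 (-0.77) and Muc13 (-0.86). Each sequence runs from 25 bases before the motif to 25 after it, or to the start site where that came first. It is written 5′ to 3′ on the gene's strand, with the motif in capitals.
Alpi: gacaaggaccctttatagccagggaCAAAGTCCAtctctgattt
Cyp2c65: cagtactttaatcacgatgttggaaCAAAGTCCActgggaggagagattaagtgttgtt
Cyp2c68: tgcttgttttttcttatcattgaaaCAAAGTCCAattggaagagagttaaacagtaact
Cyp3a11: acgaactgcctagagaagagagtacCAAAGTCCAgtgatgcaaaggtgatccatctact
H2-T3: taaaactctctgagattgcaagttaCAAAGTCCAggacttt
Slc3a1: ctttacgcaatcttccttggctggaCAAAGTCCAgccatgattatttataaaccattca
Treh: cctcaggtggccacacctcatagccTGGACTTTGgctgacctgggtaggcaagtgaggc
In Treh the match is on the opposite strand. The windows lie at chr1:87101607-87101650 (minus strand) for Alpi, chr19:39060865-39060923 (plus) for Cyp2c65, chr19:39741145-39741203 (minus) for Cyp2c68, chr5:145879930-145879988 (minus) for Cyp3a11, chr17:36190152-36190192 (minus) for H2-T3, chr17:85028283-85028341 (plus) for Slc3a1 and chr9:44673137-44673195 (plus) for Treh. All are upstream of the RefSeq start site, and the motif begins 16 to 116 bases before it. Their log2 fold changes were -3.78 for the phosphatase Alpi (-4.64 without Ctnnb1-ex3 replicate 1), -2.12 for Cyp2c65, -3.22 for Cyp2c68, -3.58 for Cyp3a11 (-4.41 without Ctnnb1-ex3 replicate 1), -2.15 for H2-T3, -2.47 for the amino acid carrier subunit Slc3a1 (-3.53 without Ctnnb1-ex3 replicate 1) and -2.55 for the trehalase Treh (-3.39 without Ctnnb1-ex3 replicate 1). A match of letters is a description and shows no binding.

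Sox, Fox and Klf genes encode families of DNA-binding factors. Of 9 Sox genes tested 6 rose and 0 fell, with a median of 1.97. Their median was 0.0139 counts per exonic base, and genes from 0.005 to 0.02 had a median log2 fold change of 0.54 as a whole. Sox4, of crypt progenitors, had 41.9 and 41.1 CPM in WT and 148 and 177 CPM in Ctnnb1-ex3 (1.97). Sox21 had 2.30 and 1.52 CPM in WT and 22.8 and 18 CPM in Ctnnb1-ex3 (3.36). Sox12 had 2.07 and 0.761 CPM in WT and 20.4 and 15.4 CPM in Ctnnb1-ex3 (3.54; 4.48 without WT replicate 1). In WT both Sox21 and Sox12 were near the floor, and Sox17, an endoderm factor, was too, with 0.230 and 1.14 CPM in WT and 14.3 and 11.3 CPM in Ctnnb1-ex3 (4.36; 3.43 without WT replicate 1; 5.64 without WT replicate 2). Of 17 Fox genes 6 rose and 2 fell, and the rises included the pioneer factors Foxa1 (0.65; 0.70 without WT replicate 1, not called; 0.57 without WT replicate 2, not called), Foxa2 (2.0) and Foxa3 (1.39), which open chromatin in gut endoderm. Of 11 Klf genes 0 rose and 3 fell, led by Klf10, a TGF-beta induced factor (-1.37).

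**Figure D4:**
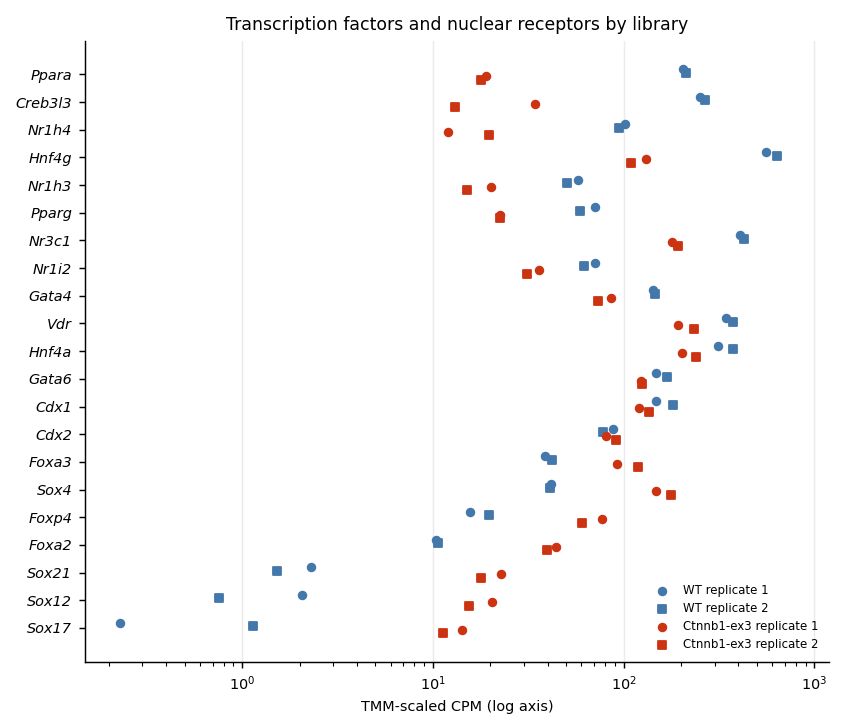
CPM per library (log axis) of transcription factor genes in WT and Ctnnb1-ex3. Ppara, Hnf4g and Nr1h4 are lower in both Ctnnb1-ex3 libraries and Sox4, Sox21 and Foxa2 are higher, while the Cdx2 points of the 2 genotypes lie close together.

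Nutrient carrier genes were mostly lower, with rises among a few amino acid carriers. Of 54 listed solute carriers 32 fell and 11 rose (median -0.99, -1.25 with the density offset). The neutral amino acid carrier Slc6a19 had 175 and 193 CPM in WT and 16.4 and 5.91 CPM in Ctnnb1-ex3 (-3.94; -4.96 without Ctnnb1-ex3 replicate 1). Slc7a9, which imports cystine and basic amino acids, had 207 and 219 CPM in WT and 25.4 and 15.9 CPM in Ctnnb1-ex3 (-3.33). The proline carrier Slc6a20a (-4.62; -7.85 without Ctnnb1-ex3 replicate 1; -3.92 without Ctnnb1-ex3 replicate 2), the monocarboxylate carrier Slc5a8 (-5.17) and the ergothioneine carrier Slc22a4 (-4.66) also fell. So did the bile acid exporter subunits Slc51a (-3.68; -5.50 without Ctnnb1-ex3 replicate 1; -3.04 without Ctnnb1-ex3 replicate 2) and Slc51b (-5.25; -4.30 without Ctnnb1-ex3 replicate 1; -6.71 without Ctnnb1-ex3 replicate 2). Slc6a20a had 1 count, the lowest table value, in Ctnnb1-ex3 replicate 2, so its -7.85 is not a measured size. Other carriers rose. Slc7a5, the large neutral amino acid exchanger, had 21.4 and 16.7 CPM in WT and 65.2 and 71.7 CPM in Ctnnb1-ex3 (1.82). Slc1a4, a carrier of small neutral amino acids, had 32.2 and 28.9 CPM in WT and 111 and 114 CPM in Ctnnb1-ex3 (1.86). Slc7a6 (1.80), Slc43a1 (3.0) and the cystine importer Slc7a11 (1.70) rose too, and for each of these carriers the 2 groups did not overlap. The nucleoside carrier Slc29a1 (1.31) rose while the concentrating nucleoside carrier Slc28a3 (-2.36) fell, and the organic anion carrier Slco3a1 had 17.3 and 14.1 CPM in WT and 119.6 and 91.2 CPM in Ctnnb1-ex3, higher in Ctnnb1-ex3.

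Metal handling genes fell in 14 of 30 and rose in 4 (median -0.55). Iron moves through the enterocyte from Slc11a2 at the apical side to Slc40a1 (ferroportin) at the basal side. Slc11a2 had 286 and 289 CPM in WT and 90.8 and 49.6 CPM in Ctnnb1-ex3 (-2.02). Slc40a1 had 212 and 218 CPM in WT and 31.6 and 18.2 CPM in Ctnnb1-ex3 (-3.07). Both were lower in Ctnnb1-ex3 with no overlap, and the ferroxidase Heph fell (-1.11). Of 8 zinc or manganese exporters of the Slc30 family 7 fell, led by Slc30a10, which removes manganese (-3.20; -4.16 without Ctnnb1-ex3 replicate 1). Of the 12 importers of the Slc39 family 6 fell and 2 rose, the risers being Slc39a10 (1.52) and Slc39a6 (1.58; 0.93 without Ctnnb1-ex3 replicate 1).

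Among ABC pumps 11 of 30 fell (36.7%) and 7 rose (23.3%), against 20.5% and 20.3% of all genes tested. The falls included the sterol exporters Abcg5 (-2.65; -3.55 without Ctnnb1-ex3 replicate 1) and Abcg8 (-2.42), the drug exporters Abcg2 (-2.02) and Abcc2 (-1.87) of the apical membrane, and the lipid exporter Abca1 (-2.33; -1.79 without WT replicate 1, not called; -1.70 without Ctnnb1-ex3 replicate 1; -3.29 without Ctnnb1-ex3 replicate 2). Exporters of conjugated compounds also went the other way: Abcc4 had 10.6 and 14.8 CPM in WT and 85.1 and 58.3 CPM in Ctnnb1-ex3 (2.53), and Abcc1 rose (1.35). Ion and water channel genes fell in 18 of 44 and rose in 7. The sodium-proton exchanger Slc9a2 (-3.24; -3.90 without Ctnnb1-ex3 replicate 1), the anion exchanger Slc26a6 (-2.85; -3.48 without Ctnnb1-ex3 replicate 1) and the aquaporin Aqp11 (-1.89) fell. The carbonic anhydrase Car12 had 32.0 and 22.1 CPM in WT and 150.0 and 149.8 CPM in Ctnnb1-ex3 and rose, with Aqp1 (1.53) and the potassium channel Kcnq1 (1.16), whose locus also holds the antisense RNA described above. The chloride channel Cftr had 0.09 and was not called.

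Genes of fatty acid oxidation fell in 29 of 37 and rose in 0, with a median of -1.19 (-0.85 with the density offset), and 27 of the falls were stable. The falls lay in mitochondria and peroxisomes alike. Cpt1a, which admits fatty acids to mitochondria, had 152 and 167 CPM in WT and 51.1 and 45.5 CPM in Ctnnb1-ex3. Acadl, a mitochondrial dehydrogenase, had 214 and 239 CPM in WT and 90.3 and 66.8 CPM in Ctnnb1-ex3. In both genes the groups did not overlap. The peroxisomal Ehhadh (-2.28) and the fatty acyl importer Abcd3 (-1.38) fell as well, and 11 of 16 tested peroxins, which assemble peroxisomes, fell with 1 rise. The ketone body genes Bdh1 (-0.28) and Oxct1 (-0.02) were not called.

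Genes of triglyceride assembly for chylomicrons were lower. Of 36 listed genes of fatty acid and triglyceride synthesis 21 fell and 2 rose (median -0.73, -0.52 with the density offset). Mogat2, which re-esterifies absorbed monoglycerides, had 222 and 221 CPM in WT and 48.7 and 23.6 CPM in Ctnnb1-ex3 (-2.57; -3.24 without Ctnnb1-ex3 replicate 1). Dgat2, which adds the last fatty acid, had 111 and 113 CPM in WT and 30.7 and 19.3 CPM in Ctnnb1-ex3 (-2.13). Dgat1 (-1.54), the lipid droplet gene Cideb (-3.05) and the fatty acid carrier Cd36 (-2.74; -4.07 without Ctnnb1-ex3 replicate 1) fell. At the start of fatty acid synthesis, Fasn had 0.32 and Acly 0.13, neither called, and Acaca rose (0.61; 0.70 without WT replicate 1, not called; 0.49 without WT replicate 2, not called).

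Phospholipase genes moved apart. The secreted enzyme Pla2g5 had 1.15 and 1.52 CPM in WT and 48.5 and 31.6 CPM in Ctnnb1-ex3 (4.92). Pla2g2f had 2.76 and 4.95 CPM in WT and 31.0 and 29.0 CPM in Ctnnb1-ex3 (3.01). Both were near the floor in WT, whereas Pla2g12b, needed for lipoprotein secretion, fell (-2.36; -3.83 without Ctnnb1-ex3 replicate 1; -1.75 without Ctnnb1-ex3 replicate 2). Sphingolipid and phospholipid genes fell in 15 of 28 and rose in 5. In the eicosanoid list 7 of 15 fell and 2 rose, and the risers were the 2 prostaglandin D2 synthases. Ptgds had 0.691 and 0.380 CPM in WT, near the floor, and 34.0 and 22.3 CPM in Ctnnb1-ex3. Hpgds had 20.5 and 13.7 CPM in WT and 65.7 and 38.5 CPM in Ctnnb1-ex3. The prostaglandin degrading enzyme Hpgd fell (-1.04).

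Of 15 listed genes of fructose, galactose and glycogen use and glucose release 8 fell and 2 rose (median -0.93). Outside this list, the carrier Slc2a5, which takes fructose across the apical membrane, had 182 and 176 CPM in WT and 26.9 and 16.2 CPM in Ctnnb1-ex3 (-3.02). Slc2a2, which takes sugars across the basal membrane, had 223 and 235 CPM in WT and 15.9 and 9.76 CPM in Ctnnb1-ex3 (-4.11). Both were low in each Ctnnb1-ex3 library. Khk (-1.94), which starts the breakdown of fructose, and Fbp1 (-2.40) and G6pc (-4.58; -7.04 without Ctnnb1-ex3 replicate 1; -3.92 without Ctnnb1-ex3 replicate 2), which act in glucose release, fell. The risers were Pck2, a mitochondrial enzyme of glucose synthesis (0.98), and the glycogen phosphorylase Pygl (1.63; 1.83 without WT replicate 1, not called; 1.44 without WT replicate 2, not called; 0.96 without Ctnnb1-ex3 replicate 2, not called). Of 22 pairs of related genes compared, 20 had both genes tested. The plot of pair ratios names each pair as first / second, for example Hk2 / Hkdc1, and in 9 pairs the second gene fell while the first did not. The log2 ratio of the first gene to the second was higher in both Ctnnb1-ex3 libraries than in both WT libraries for 16 of the 20. Among these 16, Cdx2 / Cdx1 and Car2 / Car4 had neither gene called. The pairs and the order of their genes were chosen with earlier results known, so no conclusion is drawn from the direction of this count. For single genes, the groups were apart in CPM for 73.6% of all genes tested. Hkdc1 fell (-3.01; -3.75 without Ctnnb1-ex3 replicate 1) beside a Hk2 that was not called (0.38), Pklr fell (-2.26) beside Pkm (-0.53, not called), and Slc2a2 fell beside Slc2a1 (-0.35, not called). In 1 pair the genes were called in opposite directions. Ldhb had 0.460 and 0.380 CPM in WT and 22.5 and 5.65 CPM in Ctnnb1-ex3 (4.97; 3.6 without Ctnnb1-ex3 replicate 1; 5.63 without Ctnnb1-ex3 replicate 2). It was near the floor in WT, and its log2 fold change was 2.82 with cyclic loess scaling and 6.38 with 1 taken away from each count. Ldha fell (-0.78; -0.53 without WT replicate 2, not called; -0.54 without Ctnnb1-ex3 replicate 1, not called). Ldha was also not called with cyclic loess scaling (-0.20), upper-quartile factors (-0.55) or the density offset (-0.25), so the opposite calls depended on the scaling. Glycolysis genes fell in 15 of 29 and those of the citric acid cycle and respiratory chain in 20 of 35, but their medians of -0.64 and -0.69 went to -0.25 and -0.23 with the density offset, under which 11 and 14 were called lower.

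**Figure D5:**
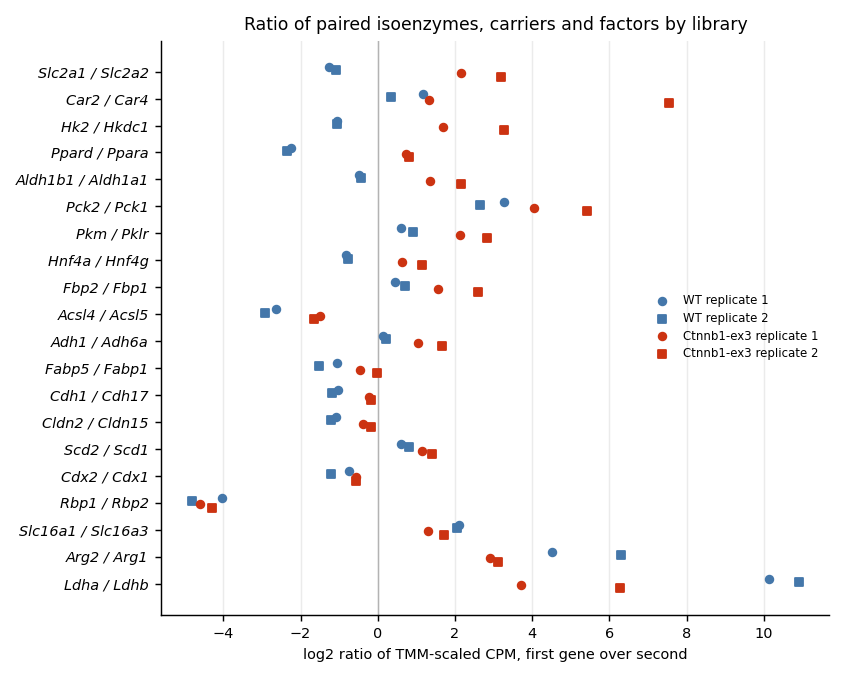
Log2 ratio of CPM between the 2 genes of each tested pair in each library, the gene before the slash over the gene after it. For 16 of the 20 pairs both Ctnnb1-ex3 points lie above both WT points. The pairs and the order of their genes were chosen with earlier results known.

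Genes of purine and pyrimidine synthesis were higher, with 17 of 26 up and 2 down (median 0.64). Of these rises 4 were stable. Ppat, the first enzyme of purine synthesis, had 53.4 and 45.3 CPM in WT and 107 and 136 CPM in Ctnnb1-ex3 (1.28). Cad, which starts pyrimidine synthesis, had 30.9 and 34.2 CPM in WT and 72.6 and 67.0 CPM in Ctnnb1-ex3 (1.11). Both rose with no overlap, as did Impdh1 (1.39) and Dhodh (1.04). Upp1, a uridine phosphorylase, fell (-1.83), and so did Xdh, which makes uric acid (-2.25), and the cytidine deaminase Cda (-1.57), which stood outside the list and were chosen after their values were seen. Rrm2 (-0.06) and Tyms (0.29), which supply deoxynucleotides, were not called.

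Amino acid enzymes moved in both directions. Arginine and proline genes fell in 8 of 26 and rose in 6, shares not far from those of all genes. Arg2, the mitochondrial arginase, had 288 and 361 CPM in WT and 45.2 and 22.3 CPM in Ctnnb1-ex3 (-3.23; -3.87 without Ctnnb1-ex3 replicate 1). The urea cycle gene Otc (-1.16) and the ornithine enzyme Oat (-1.04) fell. Ass1, which makes the precursor of arginine, had 4.14 and 3.80 CPM in WT and 26.5 and 14.9 CPM in Ctnnb1-ex3 and rose (2.37). The glutamine synthetase Glul had 51.3 and 41.1 CPM in WT and 122 and 89.4 CPM in Ctnnb1-ex3 and rose as well (1.18). In the serine and one-carbon list 6 of 18 rose (33.3%) and 4 fell (22.2%), against 20.3% and 20.5% of all genes tested. The rises of Phgdh (0.89) and Mthfd1l (1.19) were stable. Cth, which makes cysteine, fell (-1.93) and Cdo1, which oxidises it, rose (1.68).

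Chromatin genes rose by modest amounts: 19 of 41 rose and 1 fell (median 0.37). The maintenance DNA methyltransferase Dnmt1 had 55.3 and 57.8 CPM in WT and 129.5 and 134 CPM in Ctnnb1-ex3 (1.22). The demethylating enzyme Tet1 had 1.38 and 2.66 CPM in WT and 12.6 and 17.2 CPM in Ctnnb1-ex3 (2.92). Hmga2, an architectural protein of embryonic cells, had 50.7 and 51.4 CPM in WT and 138 and 135 CPM in Ctnnb1-ex3 (1.42). All 3 were stable, and the remodeller Smarca4 rose too (1.08). By family 7 of 8 tested MCM helicase genes rose, as did 6 of 10 subunits of the replicative DNA polymerases while 1 fell, with medians of 0.93 and 0.78. Of the ribosomal proteins of the cytosol 0 of 81 rose and 1 fell, with a median of -0.36 in genes that are dense in reads.

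Notch signalling acts between neighbouring cells and sets absorptive against secretory fate. Of 20 tested genes 10 rose and 3 fell. The ligand Dll4 had 7.83 and 6.85 CPM in WT and 45.2 and 28.5 CPM in Ctnnb1-ex3 (2.32). The receptor-modifying enzyme Lfng had 2.07 and 2.66 CPM in WT and 23.6 and 23.6 CPM in Ctnnb1-ex3 (3.33). The ligand Jag1 had 108 and 105 CPM in WT and 45.2 and 45.5 CPM in Ctnnb1-ex3 (-1.23). For each of the 3 the groups did not overlap, and the Notch targets Hes1 (0.07) and Nrarp (-0.08) were not called. In the Hippo pathway, which restrains the coactivators YAP and TAZ, 7 of 16 genes rose and 0 fell (median 0.80, 0.12 with the density offset). Tead2, a DNA-binding partner of YAP, had 1.84 and 1.52 CPM in WT and 33.2 and 36.0 CPM in Ctnnb1-ex3 (4.31). The coactivator gene Wwtr1 (TAZ) rose (2.16; 1.53 without WT replicate 1; 2.93 without WT replicate 2) and so did the repressor Vgll4 (1.64), and Yap1 had 0.04, not called.

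BMP signals oppose crypt growth. In the TGF-beta and BMP list 6 of 26 rose and 6 fell, shares close to those of all genes. Single ligands differed. Bmp7 had 7.37 and 7.99 CPM in WT and 67.2 and 66.0 CPM in Ctnnb1-ex3 (3.12). Bmp3 had 187 and 196 CPM in WT and 33.7 and 37.2 CPM in Ctnnb1-ex3 (-2.44). Bmp2 had 31.5 and 35.8 CPM in WT and 9.62 and 11.8 CPM in Ctnnb1-ex3 (-1.65). The direct BMP targets Id1 (-0.08) and Id3 (-0.16) were not called, and Tgfbi, a TGF-beta induced matrix protein, fell (-3.10). Of the hedgehog genes 7 were tested and 3 rose. The transducer Smo had 13.6 and 11.8 CPM in WT and 67.6 and 59.6 CPM in Ctnnb1-ex3 (2.31), and the ligand Ihh fell (-0.63; -0.57 without WT replicate 1, not called; -0.72 without WT replicate 2, not called).

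Among growth factors and receptors 9 of 27 rose (33.3%) and 6 fell (22.2%), against 20.3% and 20.5% of all genes tested. Fgfr4, the receptor of the enterokine Fgf15, had 3.45 and 4.56 CPM in WT and 38.3 and 35.2 CPM in Ctnnb1-ex3 and rose (3.22). Fgf15 itself had 19.3 and 7.61 CPM in WT and 0.301 and 0.257 CPM, near the floor, in Ctnnb1-ex3 and fell (-5.46; -4.65 without WT replicate 1, not called). The receptors Fgfr2 (1.42), Fgfr3 (1.26) and Kit (2.22) and the secreted Igfbp4 (2.60) rose, the EGF family ligand Nrg4 fell (-1.81), and Egfr had 0.34 and was not called. Downstream of ERK, the ETS factor Etv4 had 11.7 and 11.4 CPM in WT and 71.1 and 61.1 CPM in Ctnnb1-ex3 (2.51). The phosphatase Dusp4 had 8.29 and 5.71 CPM in WT and 40.7 and 23.6 CPM in Ctnnb1-ex3 (2.18). Both were higher in Ctnnb1-ex3, while the inhibitor Spry2 fell (-1.12).

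Eph receptors and ephrins sort crypt from villus cells by repulsion. Of 8 Eph receptor genes 5 rose and 1 fell. Ephb3 had 11.7 and 14.1 CPM in WT and 99.6 and 119 CPM in Ctnnb1-ex3 (3.09). Epha4 had 14 and 8.75 CPM in WT and 51.5 and 51.6 CPM in Ctnnb1-ex3 (2.14). The receptor that fell was Epha1 (-1.2; -1.22 without WT replicate 2, not called). The ligand Efnb2 had 268 and 333 CPM in WT and 61.0 and 40.1 CPM in Ctnnb1-ex3 and fell (-2.55), while Efna4 rose (2.01) and Efnb1 had -0.17 and was not called. In the axon guidance list 13 of 34 rose and 6 fell (median 0.84, 0.34 with the density offset). The receptor Plxnb1 had 4.14 and 3.04 CPM in WT and 44.8 and 38.5 CPM in Ctnnb1-ex3 (3.49). The semaphorins, ligands of plexins, held changes in both directions. Sema3c had 26.7 and 21.3 CPM in WT and 79.4 and 117 CPM in Ctnnb1-ex3 (2.01). Sema6d had 98.3 and 92.1 CPM in WT and 18 and 13.4 CPM in Ctnnb1-ex3 (-2.58).

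Of 28 neuronal and synaptic genes tested 13 rose and 1 fell, with a median of 1.57 (0.69 with the density offset, under which 7 rose and 3 fell). Dpysl5, a growth cone protein, had 0.921 and 0.761 CPM in WT, near the floor, and 15.5 and 23.4 CPM in Ctnnb1-ex3 (4.45). Nefm, a neurofilament, had 3.91 and 2.66 CPM in WT and 26 and 19.5 CPM in Ctnnb1-ex3 (2.75). Syt13, a synaptotagmin, had 3.91 and 2.28 CPM in WT and 25.8 and 14.9 CPM in Ctnnb1-ex3 (2.67). For each of the 3 the groups did not overlap. Enteroendocrine cells share neuronal genes, and 10 of 16 enteroendocrine markers were higher too, whose part in the neuronal list was not tested. Over all 30 potassium channel genes tested 15 rose and 3 fell. Their median was 0.0042 counts per exonic base, and genes under 0.005 had a median log2 fold change of 0.76 as a whole.

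Basement membrane and cytoskeleton genes changed by isoform. Of 6 laminin genes tested 4 rose and 1 fell. The alpha chain Lama5 had 8.75 and 5.33 CPM in WT and 48.2 and 54.5 CPM in Ctnnb1-ex3 (2.82). The gamma chain Lamc1 had 28.1 and 14.8 CPM in WT and 53.4 and 51.9 CPM in Ctnnb1-ex3 (1.26; 0.89 without WT replicate 2, not called). The alpha chain Lama3 fell (-2.83; -2.11 without WT replicate 2, not called; -3.43 without Ctnnb1-ex3 replicate 2). Timp3, which inhibits matrix proteases, had 1.61 and 1.90 CPM in WT and 40.1 and 22.1 CPM in Ctnnb1-ex3 (4.16). Of 16 integrin genes 3 rose and 2 fell, against 20.3% and 20.5% of all genes tested. Itgb5 had 24.6 and 23.6 CPM in WT and 7.82 and 5.14 CPM in Ctnnb1-ex3 and fell (-1.87).

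Of 46 brush border and cytoskeleton genes 22 fell and 9 rose (median -0.39). The falls included microvillus parts. The motor Myo1a had 305 and 328 CPM in WT and 99.9 and 102 CPM in Ctnnb1-ex3 (-1.65). The bundling protein Pls1 (-1.29), the intermicrovillar cadherin Cdhr2 (-1.36) and the membrane protein Tmigd1 (-4.40; -7.22 without Ctnnb1-ex3 replicate 1; -3.70 without Ctnnb1-ex3 replicate 2) fell as well, while Myo7b (0.21) and Espn (0.44) were not called. The rises included tubulins known from neurons and a myosin light chain known from contractile cells. Tubb2b had 5.76 and 6.47 CPM in WT and 45.7 and 45 CPM in Ctnnb1-ex3 (2.90). Tuba1a had 14.7 and 9.89 CPM in WT and 45.8 and 60.1 CPM in Ctnnb1-ex3 (2.07). Myl9, the light chain, had 0.460 and 0.761 CPM in WT, near the floor, and 32.8 and 17.7 CPM in Ctnnb1-ex3 (5.39). At junctions, 13 of 43 genes fell and 7 rose. Cldn15, which forms sodium pores (-1.2), Cldn23 (-2.0) and the intestinal cadherin Cdh17 (-1.17) fell. The protocadherin Pcdh8 had 0.691 and 0.380 CPM in WT, near the floor, and 27.4 and 15.7 CPM in Ctnnb1-ex3 and rose. The core junction genes Cdh1 (-0.27) and Cldn7 (-0.37) were not called.

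Membrane mucin and glycosylation genes fell in 20 of 36 and rose in 2. The sialyltransferase St3gal4 had 474 and 611 CPM in WT and 92.1 and 49.8 CPM in Ctnnb1-ex3 (-2.92), and the branching enzyme Gcnt4 fell (-2.88; -3.58 without Ctnnb1-ex3 replicate 1). Fut2, which adds the terminal fucose of secretor glycans, had 1.84 and 2.66 CPM in WT and 23.3 and 17.5 CPM in Ctnnb1-ex3 and rose (3.21), with Galnt12 (0.94), which starts mucin-type chains.

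Genes of lytic cell death and its sensors were lower. Gasdermins form membrane pores when cut by inflammatory caspases, which also mature Il18. Of 20 listed genes 14 fell and 1 rose (median -1.08, -0.79 with the density offset). Gsdmd, a pore former, had 154 and 148 CPM in WT and 63.4 and 46.8 CPM in Ctnnb1-ex3 (-1.45). Casp1 had 274 and 334 CPM in WT and 132 and 135 CPM in Ctnnb1-ex3 (-1.19). Il18 had 201 and 238 CPM in WT and 41.3 and 8.73 CPM in Ctnnb1-ex3 (-3.04; -4.65 without Ctnnb1-ex3 replicate 1; -2.40 without Ctnnb1-ex3 replicate 2). Pore former, protease and cytokine were thus each lower in both Ctnnb1-ex3 libraries. The sensors Naip1 (-1.96), which detects bacterial type III secretion, and Aim2 (-1.59) fell, and Nlrp6 had -0.37, not called. Gsdma2, outside the list and chosen after its value was seen, had 1.61 and 2.28 CPM in WT and 16.4 and 19.5 CPM in Ctnnb1-ex3 and rose (3.22).

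The apoptosis list had 13 falls and 3 rises among 33. The death receptor gene Fas had 85.0 and 68.5 CPM in WT and 0.902 and 4.37 CPM in Ctnnb1-ex3 (-5.05; -4.15 without Ctnnb1-ex3 replicate 1; -6.38 without Ctnnb1-ex3 replicate 2). The effector caspase gene Casp6 (-1.45) and the BH3-only gene Pmaip1 (-1.48) fell. The survival gene Bcl2 had 9.90 and 11.4 CPM in WT and 94.8 and 58.1 CPM in Ctnnb1-ex3 (2.86). The BH3-only gene Bik had 3.22 and 2.66 CPM in WT and 28.4 and 18.2 CPM in Ctnnb1-ex3 (2.96). Each of the pair was higher in both Ctnnb1-ex3 libraries than in WT, although their known roles are opposed. Of the cell cycle inhibitors, Cdkn2b, a TGF-beta target, had 215 and 223 CPM in WT and 18.3 and 21.3 CPM in Ctnnb1-ex3 (-3.48), and Cdkn1c had 5.07 and 7.99 CPM in WT and 24.8 and 23.4 CPM in Ctnnb1-ex3 (1.91; 1.56 without WT replicate 1, not called).

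Antigen presentation and interferon genes fell in 23 of 44 and rose in 2 (median -0.74). All 3 immunoproteasome subunits fell: Psmb8 had 99.5 and 92.4 CPM in WT and 18.8 and 29.0 CPM in Ctnnb1-ex3 (-2.03), beside Psmb9 (-1.34) and Psmb10 (-0.78; -0.68 without WT replicate 2, not called). The non-classical class I genes H2-Q1 (-2.25) and H2-T3 (-2.15) fell, and H2-K1 (-0.56) was not called.

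Among chemokines and cytokines 12 of 41 fell and 5 rose. Ccl20, which draws immature dendritic cells, had 143 and 179 CPM in WT and 34.1 and 18 CPM in Ctnnb1-ex3 (-2.58). Ccl25, which draws T cells to the small intestine, had 337 and 447 CPM in WT and 162 and 176 CPM in Ctnnb1-ex3 (-1.21). The receptor Il17re had 4.37 and 4.18 CPM in WT and 21.2 and 21.6 CPM in Ctnnb1-ex3 (2.31). For each of the 3 the groups did not overlap. The lymphocyte genes Gzma, Ccl5, Nkg7 and Ptprc were high in Ctnnb1-ex3 replicate 2, and their part in these lists was not tested. Without that library the log2 fold changes were -2.36 for Psmb8, -2.23 for Ccl20 and 2.30 for Il17re.

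Antimicrobial and protective genes were mixed. The lectin Reg3b had 238 and 343 CPM in WT and 62.2 and 74.2 CPM in Ctnnb1-ex3 (-2.09). Reg3g had 292 and 426 CPM in WT and 98.6 and 129 CPM in Ctnnb1-ex3 (-1.66). The interferon-induced Ifitm1 had 1.61 and 1.52 CPM in WT and 39.5 and 37.2 CPM in Ctnnb1-ex3 (4.58). Nqo1, a target of the oxidant-responsive factor Nfe2l2, had 217 and 218 CPM in WT and 48.1 and 35.7 CPM in Ctnnb1-ex3 and fell (-2.36), as did Nfe2l2 (-1.09). Other targets of that factor were Txnrd1, which was called (-0.47; -0.51 without WT replicate 1, not called; -0.47 without WT replicate 2, not called; -0.36 without Ctnnb1-ex3 replicate 1, not called), and Gclc, which was not (-0.18). Of the lysosome and autophagy genes 21 of 42 fell and 3 rose, with 8 of the falls stable and 13 genes called lower with the density offset, and 8 of 11 cathepsins fell. The protease Ctse had 32.9 and 17.1 CPM in WT and 1.65 and 1.80 CPM in Ctnnb1-ex3 (-3.86). By contrast, Ctsf had 0.921 and 1.14 CPM in WT, near the floor, and 14.3 and 12.8 CPM in Ctnnb1-ex3 and rose (3.71).

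Of hypoxia genes 11 of 22 fell and 2 rose. Epas1, which encodes HIF-2 alpha, had 54.1 and 63.1 CPM in WT and 8.12 and 18.2 CPM in Ctnnb1-ex3 (-2.19; -2.84 without Ctnnb1-ex3 replicate 2). Hif1a (-0.90) and the peptide hormone Adm (-2.29) fell. In the clock list 6 of 17 fell and 2 rose. Dbp, at the lowest table value in both Ctnnb1-ex3 libraries, was at least 9.33-fold lower, the clock factor Arntl fell (-0.97; -0.75 without WT replicate 1, not called), and Nr1d1 had -0.79, not called.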

How the data were processed

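Whole-gene counts for 4 of the 8 RNA-seq libraries of the series, 2 WT and 2 Ctnnb1-ex3, were read from the table the authors deposited. The values are whole numbers with a lowest value of 1, unnormalized as far as the values show. The submitters' processing notes name mm10, Salmon and DESeq2 without roles or versions, and how the counts were made from reads is not given in the sources used here. The log2 fold changes and adjusted p-values of the authors' deposited table for the same contrast were only compared: it holds 1823 higher and 2247 lower genes at an adjusted p under 0.05, and 3928 of the 5291 calls made here are among them with the same sign. Columns of libraries outside the series numbered 0, and the other 4 libraries were not used.

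In WT replicate 1 and replicate 2 the counts summed to 4631527 and 2951887, in the Ctnnb1-ex3 replicates to 6015933 and 3683169. Genes were filtered with filterByExpr, scaled with TMM and tested with edgeR's quasi-likelihood test (edgeR 4.0.16, R 4.3.3) on the 4 libraries without covariates, with Benjamini-Hochberg adjustment over 12976 genes and a threshold of 0.05. Replicates of a group differed beyond counting noise, with chi-square per degree of freedom of 3.98 in WT and 10.5 in Ctnnb1-ex3, and no pair was merged. Exonic lengths for read density were found for 98.7% of genes. The code was tested on simulated data. Alternatives used DESeq2 1.42.0 and limma 3.58.1, other scaling, no filter, 1 taken away from each count, a replicate block and leaving out each library. The density offset and the removal of genes above 0.4 counts per base were chosen after seeing the data.

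Named genes were Ctnnb1, 5 crypt and enterocyte markers, the 15 largest rises and falls whose mean log2 CPM was 5 or more and whose groups did not overlap, leaving out genes of the usual Wnt target and cell type marker lists, the 10 largest gains and losses of mean CPM, and the members of the gene lists and pairs with the largest changes among those called. The lists, families, pairs and motifs were chosen with earlier results of these data known. A library is named where leaving it out ended a call or moved a fold over 1.5 times. A fold against a group at the lowest value is a bound against 3 counts per library. Results for some genes and pairs are not reported here.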

Additional observations from a re-analysis of the deposited data

How the results depend on the processing

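The 2637 higher and 2654 lower calls depended on single libraries. Leaving out 1 library in turn gave 1110 to 4008 genes called higher and 1524 to 3749 called lower, both lowest without WT replicate 2 and highest without Ctnnb1-ex3 replicate 2; the lone library of a group was then assumed to vary like the other group. Upper-quartile factors gave 3725 higher and 1752 lower calls. Under DESeq2 size factors, cyclic loess, DESeq2, limma-voom, no filter, 1 taken away from each count, a replicate block, and, chosen after seeing the data, the density offset and removal of the densest genes, higher calls ranged from 1973 to 2981 and lower calls from 2468 to 3503. The replicate number as a block gave 2981 higher and 3503 lower calls. Whether the numbers pair the libraries could not be settled with 2 pairs: the correlation of same-numbered deviations was 0.0706. Of the 261 called genes named in the text, 236 kept their call in each of the 14 alternatives that tested them, and 0 changed sign in any. Some named genes that did not pass were called elsewhere. Ctnnb1 was called lower by DESeq2 (-0.60), limma-voom (-0.59), with no filter (-0.57), a replicate block (-0.60) and without the densest genes (-0.62). It was not called with DESeq2 size factors (-0.62), 1 taken away (-0.59), upper-quartile factors (-0.36), cyclic loess (-0.10) or the density offset (-0.24). Cyclic loess called Fasn (0.68), Hk2 (0.60) and Cftr (0.55) higher, and DESeq2 called H2-K1 lower (-0.57). The density offset kept 4163 of the 5291 calls. Fold changes of genes with few counts rest on a floor of 3 counts, 0.451 to 1.14 CPM by library. Of the lists described in the text, median changes of the TGF-beta, hedgehog, growth factor, arginine, junction, clock, misfolded protein and cell cycle inhibitor lists and of the few immune markers tested changed sign between settings. For the groups given with 0 edgeR calls in a direction, members at an unadjusted p under 0.05 numbered 2 for Klf rises (1 by limma-voom, 2 by limma-trend), 2 for intestinal factor rises, 1 each for fatty acid oxidation rises (1 by limma-trend), Hippo falls and immune marker falls (1 by limma-trend), and 0 for P450 and ribosomal protein rises and Sox falls; DESeq2 called 0 in all of these.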

Other observations

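Further families hold values that the comparisons above did not describe. Keratins build the intermediate filaments of epithelia. Krt4, a keratin of stratified epithelia, had 0.921 and 0.380 CPM in WT and 17.6 and 33.7 CPM in Ctnnb1-ex3 (5.12; 5.93 without WT replicate 1), so that it was near the floor in WT. Krt31, a hair keratin at the lowest table value in both WT libraries, was at least 10.4-fold higher. Krt23 had 42.8 and 51.4 CPM in WT and 113 and 117 CPM in Ctnnb1-ex3 (1.30). The keratin and cornified envelope list as a whole had 6 rises and 11 falls among 32. Annexins bind membrane lipids in the presence of calcium. Of 12 tested 4 rose and 5 fell, against 20.3% and 20.5% of all genes tested. Anxa10 had 128 and 147 CPM in WT and 12.9 and 21.6 CPM in Ctnnb1-ex3 (-3.04). Anxa13, of the brush border membrane, had 316 and 415 CPM in WT and 127 and 128 CPM in Ctnnb1-ex3 (-1.51). Anxa1 had 36.4 and 55.5 CPM in WT and 113 and 127 CPM in Ctnnb1-ex3 and rose (1.41). In each of these annexin genes the 2 groups did not overlap.

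Genes named Zfp, many of which encode DNA-binding repressors, rose in 70 of 310 and fell in 12 (median 0.32). The rises were close to the 20.3% of all genes called higher, and the falls were well under the 20.5% called lower. The median of the Zfp genes was 0.0254 counts per exonic base, and genes from 0.02 to 0.05 had a median log2 fold change of 0.23 as a whole. Zfp503 had 1.61 and 1.52 CPM in WT and 54.9 and 50.1 CPM in Ctnnb1-ex3 (5.03), the highest fold change among the Zfp genes. In the potassium channel genes, Kcnh2, of the heart's repolarising current, had 0.460 and 0.380 CPM in WT and 6.61 and 10.3 CPM in Ctnnb1-ex3 (4.20). Kcnk10, a leak channel, had 40.1 and 35.0 CPM in WT and 4.96 and 1.54 CPM in Ctnnb1-ex3 and fell (-3.43; -4.59 without Ctnnb1-ex3 replicate 1). Of 14 imprinted and long non-coding genes 6 rose and 1 fell. Plagl1, an imprinted zinc finger gene, had 0.691 and 0.380 CPM in WT, near the floor, and 16.7 and 4.88 CPM in Ctnnb1-ex3 (4.21; 3.01 without Ctnnb1-ex3 replicate 1; 4.81 without Ctnnb1-ex3 replicate 2). The growth regulators Meg3 (2.19; 3.16 without WT replicate 1, not called; 1.71 without WT replicate 2, not called; 1.03 without Ctnnb1-ex3 replicate 1, not called) and Peg3 (2.51; 3.31 without WT replicate 1, not called; 2.09 without WT replicate 2, not called) were called at low counts. Among genes of the response to misfolded protein, 8 of 34 fell and 4 rose, 23.5% and 11.8% against 20.5% and 20.3% of all genes. Ddit3, which encodes the stress factor CHOP, had 85.4 and 85.6 CPM in WT and 29.0 and 42.1 CPM in Ctnnb1-ex3 (-1.28), lower in both Ctnnb1-ex3 libraries, and Atf4 had -0.33, not called.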
